A study of Mus musculus with 6 samples.

Results

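Simple epithelial keratins and vimentin are the intermediate filament genes that set apart an internal, single-layered epithelium from a mesenchymal cell. The genes described are Krt7, Krt8, Krt18, Krt19, Krt20, Krt23 and Vim, chosen by name, and all 7 were among the 19057 genes measured. They were read by 9 probes, 2 each for Krt8 and Vim and 1 for each of the others. Each gene takes the value of its brightest probe by the mean over the 6 arrays. The samples were organoids of mouse small intestine, cultured three-dimensional epithelium that buds crypt-like domains. The first group was labelled Snai1 knockout and came from mice of the strain Villin-Cre, Snai1fl/fl (floxed Snai1 alleles, 3 samples). The control group came from Villin-Cre mice (3 samples). All 6 samples, controls included, carried Villin-Cre, in which the Villin promoter directs Cre to intestinal epithelium, and all had been given 0.5 µM tamoxifen for 24 hours. The labels do not say whether samples of a group came from separate animals, so p-values here rest on a spread that may be technical. RNA was read on Illumina arrays, 1 array a sample, and the number of arrays limits the precision.

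Keratin filaments are built from pairs of a type I and a type II keratin. Krt8 (type II) with Krt18 (type I) is the first pair made in simple epithelia. Intestinal epithelium adds the type I keratins Krt19 and Krt20, the second of which marks differentiated cells. Krt7 is a type II keratin of ducts and some mucosae, and Krt23 is a type I keratin whose function is less well known. Vimentin is a type III protein that forms filaments by itself in fibroblasts, endothelium and leukocytes, and epithelial cells take it on in epithelial-mesenchymal transition (EMT). Snai1 encodes a zinc-finger transcriptional repressor that drives EMT and binds the E-box CACCTG, and in human carcinoma cell lines Snail proteins lower KRT18 together with E-cadherin. The comparison therefore asks whether these epithelial and mesenchymal filament genes differed between Snai1 knockout and control organoids.

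Promoter windows from RefSeq (GRCm38.p6, 250 bases before to 50 after the gene's start) were found for 6 of the 7 genes by symbol. They are shown because Snai1 protein binds this E-box. The letters CACCTG, or CAGGTG for the other strand, were in 4 of these 6 windows, against 20.2% of all 32851 windows of 300 bases in the table. Each match was on the strand of the gene. The stretches around the 4 matches follow, read 5′ to 3′ on that strand, with the E-box in capitals. Their positions are chr15:101412319-101412404 (plus strand) for Krt7, chr15:102004408-102004493 (minus strand) for Krt8, chr15:102027966-102028047 (plus strand) for Krt18 and chr11:99493307-99493370 (minus strand) for Krt23.
Krt7: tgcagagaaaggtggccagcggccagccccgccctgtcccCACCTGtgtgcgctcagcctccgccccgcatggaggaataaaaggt
Krt8: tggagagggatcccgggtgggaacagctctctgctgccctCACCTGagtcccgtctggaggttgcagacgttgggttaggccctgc
Krt18: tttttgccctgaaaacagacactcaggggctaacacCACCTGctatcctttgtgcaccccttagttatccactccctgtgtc
Krt23: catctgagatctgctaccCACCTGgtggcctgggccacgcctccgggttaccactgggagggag
The E-box began 44 bases before the start of Krt7, 111 before Krt8, 214 before Krt18 and 232 before Krt23. The windows of Krt20 and Vim did not hold these letters. A match describes the sequence and does not show that a protein bound there. Krt8 and Krt18 are next to each other among the protein-coding genes of chromosome 15 in this build, and Krt20 and Krt23 are next to each other on chromosome 11.

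None of the 7 genes was called different between Snai1 knockout and control organoids (limma, threshold 0.05 on the p adjusted by Benjamini-Hochberg across all genes), where 25 of all 19057 genes, or 0.131%, were called. Their adjusted p ran from 0.895 for Krt19 to 0.999 for Krt18. Krt8, Krt7, Krt18 and Vim had the higher mean in the knockout and Krt19, Krt20 and Krt23 the lower one. The median difference of the 7 was 0.01 on the log2 scale, and that of all genes was -0.0006. None of the 7 had an unadjusted p under 0.05, as 7.22% of all genes had. None had groups that did not overlap, as 12.0% of all genes had. The exact permutation test over the 6 samples, which cannot go below 0.1, gave its lowest value among the 9 probes, p = 0.2, for Krt19.

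Values below are the authors' deposited array values, taken as log2. They run from 7.71 to 14.8 with a median of 7.87, so low values are compressed and folds of dim genes are understated. Folds assume base 2. Keratins are a family of related sequences with pseudogenes, and whether a probe also reads a relative was not tested. The brighter Snai1 probe averaged 7.91 ± 0.05 on knockout arrays and 7.91 ± 0.04 on control arrays (SD, n = 3 each; exact permutation p = 0.9). The other probe averaged 7.87 ± 0.04 on knockout arrays and 7.86 ± 0.03 on control arrays (SD, n = 3 each; exact permutation p = 0.6). At these levels a loss was not detectable, so the Snai1 probes do not check the labels. Of 10 intestinal epithelium markers, all measured, 8 lay above 8.27, the upper quartile of all values. None of 15 fibroblast and smooth muscle markers, of 9 leukocyte markers or of 7 neuron and glia markers did. Of 8 endothelial markers 1 did, Esam, at 8.31 in the knockout and 8.36 in control.

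Krt8, the type II partner of all the type I keratins of this epithelium, was read near the top of the scale. It had values of 14.19, 14.26 and 14.43 on knockout arrays, against 14.32, 14.05 and 14.29 on control arrays. The highest array was a knockout and the lowest a control, and the groups overlapped between them. The difference was 0.08 ± 0.09 (SE, log2; limma adjusted p = 0.953), or 1.05-fold with a 95% interval of 0.902 to 1.23. Of all probes on the array 99.7% were dimmer than this one, ILMN_1221157. Whether a signal this bright still follows the amount of RNA in proportion was not tested. The second Krt8 probe, ILMN_1229241, is annotated to the same transcript, NM_031170, and lay near the bottom of the scale, with 7.83 ± 0.03 on knockout arrays and 7.83 ± 0.004 on control arrays (SD, n = 3 each). The probes of Krt8 thus disagreed on whether the gene is bright, and the dim one lay where changes are compressed.

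Krt7, the other type II keratin, had values of 10.13, 10.58 and 10.62 on knockout arrays, against 10.18, 10.36 and 10.70 on control arrays. In both groups the array numbered 1 was the lowest and the array numbered 3 the highest. The difference was 0.03 ± 0.18 (SE, log2; limma adjusted p = 0.999), or 1.02-fold with an interval of 0.750 to 1.39. The within-group standard deviation of Krt7, 0.27, exceeded that of 98.3% of the 6969 genes whose mean lay above the upper quartile.

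Krt18, the type I partner of Krt8, had values of 11.24, 11.60 and 11.59 on knockout arrays, against 11.21, 11.48 and 11.69 on control arrays. The arrays numbered 1 were the lowest in both groups, and the spread lay within each group and hardly between them. The difference was 0.01 ± 0.15 (SE, log2; limma adjusted p = 0.999), or 1.01-fold with an interval of 0.781 to 1.31. Its promoter stretch with the E-box is printed above.

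Krt19, a type I keratin without a tail domain, had values of 12.79, 12.76 and 12.95 on knockout arrays, against 12.97, 12.82 and 12.99 on control arrays. It was lower in the knockout in 3 of 3 pairs of arrays with the same number, by -0.18, -0.06 and -0.04, yet the highest knockout array stood above the lowest control array. The difference was -0.09 ± 0.07 (SE, log2; limma adjusted p = 0.895), or 0.937-fold with an interval of 0.834 to 1.05. Its spread within groups, 0.10, was the smallest of the 6 keratins and exceeded that of 52.1% of the bright genes. With the replicate number as a block the adjusted p was 0.485, the lowest of the 7 genes.

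Krt20, the keratin of differentiated villus cells, had values of 11.70, 11.69 and 12.29 on knockout arrays, against 12.00, 11.57 and 12.28 on control arrays. The array numbered 3 was the highest in both groups, standing far above the others only in the knockout, and the pair numbered 3 differed by 0.02. The difference between groups was -0.05 ± 0.24 (SE, log2; limma adjusted p = 0.998), or 0.963-fold with an interval of 0.643 to 1.44, the widest of the 7 genes. Its within-group standard deviation, 0.35, exceeded that of 99.4% of the bright genes, and the brightest array stood 1.66-fold above the dimmest.

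Krt23 had values of 10.46, 10.30 and 10.70 on knockout arrays, against 10.42, 10.77 and 10.78 on control arrays. The lowest array was a knockout and the highest a control, with the other arrays interleaved. The difference was -0.17 ± 0.14 (SE, log2; limma adjusted p = 0.920), or 0.890-fold with an interval of 0.704 to 1.12, the largest of the 7 in size. Most of it came from the pair numbered 2, which differed by -0.47, while the pair numbered 1 differed by 0.04 and the pair numbered 3 by -0.07.

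**Figure D1:**
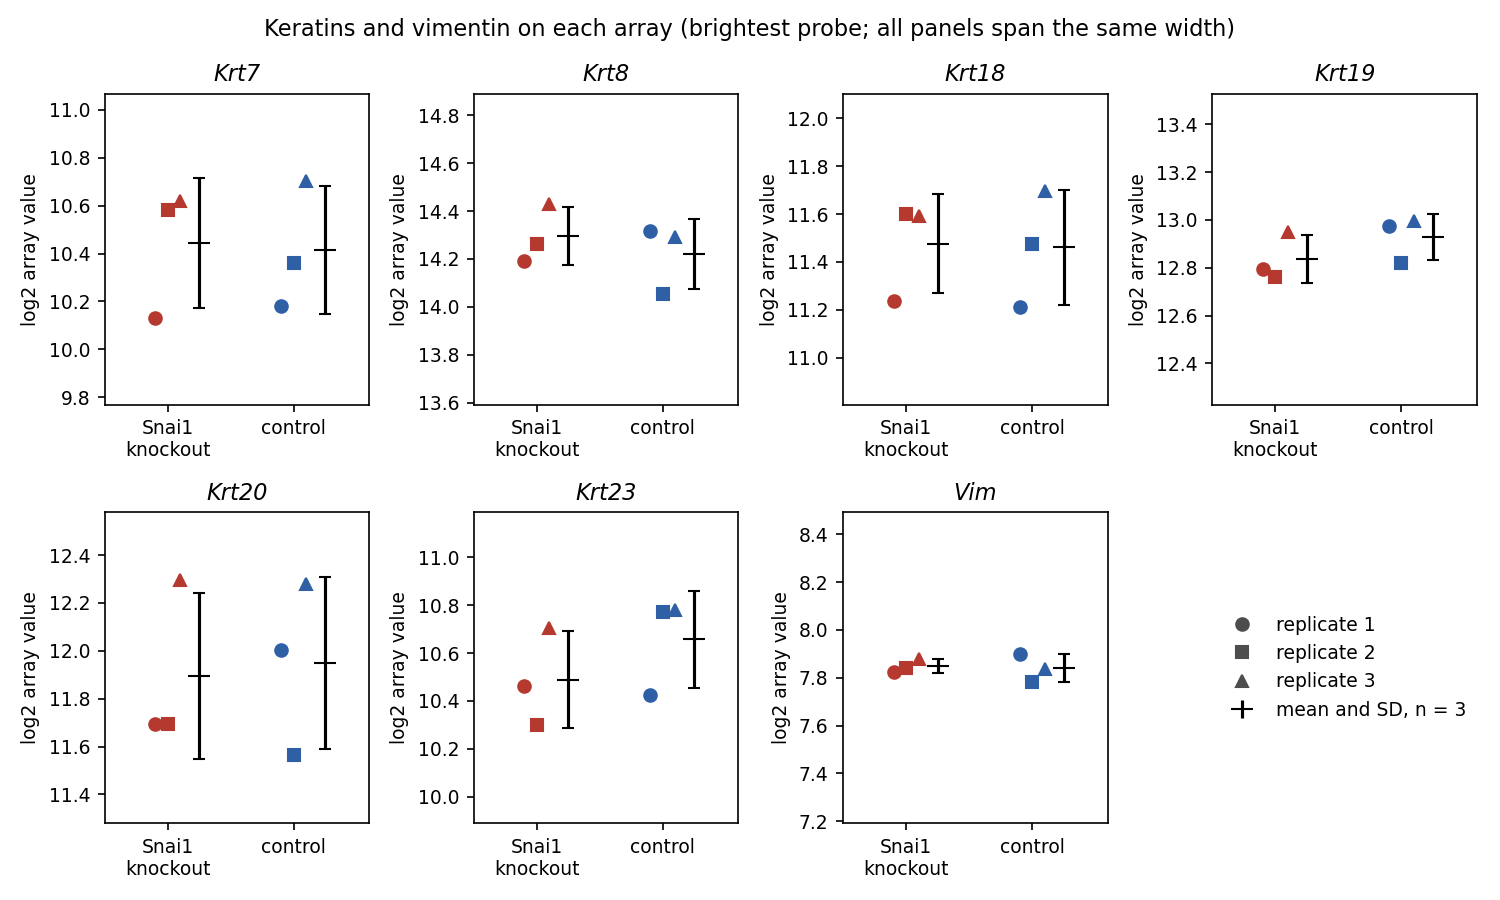
Log2 array value of each gene's brightest probe on the 3 Snai1 knockout arrays (red, left) and the 3 control arrays (blue, right), with the mean and SD of each group in black. Every panel spans the same width of values, and in all 7 the groups overlap, with the widest spread in Krt20 (11.57 to 12.29) and the narrowest in Vim (7.78 to 7.90).

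Vim, the mesenchymal filament gene, was at the bottom of the scale in both groups. Its brighter probe, ILMN_2451022, had values of 7.83, 7.84 and 7.88 on knockout arrays, against 7.90, 7.78 and 7.83 on control arrays. The highest and the lowest array were both controls. The difference was 0.01 ± 0.04 (SE, log2; limma adjusted p = 0.998), with an interval of -0.08 to 0.10, and 41.0% of all probes were dimmer. The second probe, ILMN_1232980, annotated to another sequence (AK033175), averaged 7.80 ± 0.005 on knockout arrays and 7.78 ± 0.02 on control arrays (SD, n = 3 each; exact permutation p = 0.4), and 4.87% of all probes were dimmer. Both probes averaged below the median of all probes, so a fall of Vim was not detectable, and the interval holds only for the compressed scale.

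**Figure D2:**
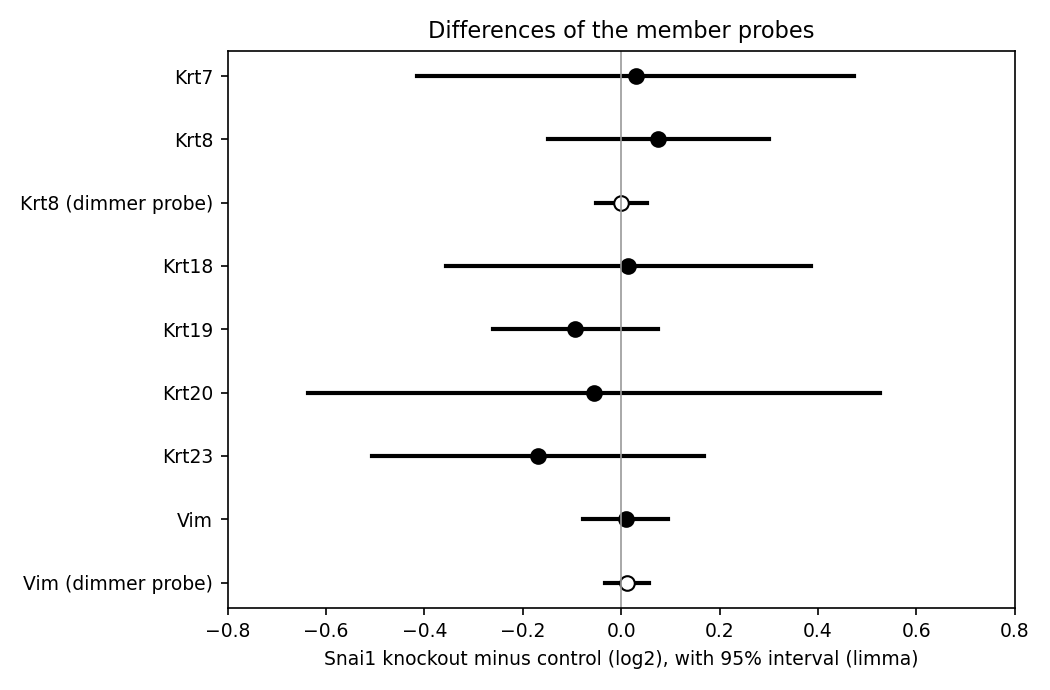
Snai1 knockout minus control (log2) for the 9 probes, with the 95% interval from limma. Filled points are each gene's brightest probe and open points the dimmer probes of Krt8 and Vim; all 9 intervals include 0, the widest being that of Krt20 (-0.64 to 0.53).

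Part of the spread of Krt7, Krt18, Krt19 and Krt20 was shared by arrays of the same replicate number. With the number as a block, the standard error of the difference was 0.07 for Krt7 against 0.18 without it. For Krt18 it was 0.05 against 0.15, for Krt19 0.04 against 0.07 and for Krt20 0.09 against 0.24. Krt8, at 0.07 against 0.09, and Krt23, at 0.11 against 0.14, gained little. None of the 7 genes was called with the block, where 0.0472% of all genes were. Villus enterocyte markers had a like order across the arrays. The mean level of 20 such genes was 10.30, 10.30 and 10.53 on knockout arrays and 10.47, 10.26 and 10.58 on control arrays. Krt20 and this list were both highest on the arrays numbered 3 of each group and lowest on control array 2. The same held for the 10 general intestinal epithelium markers, so it was not particular to enterocyte markers. Their mean level was 10.82, 10.96 and 10.98 on knockout arrays and 10.84, 10.77 and 11.02 on control arrays. Within the enterocyte list, Sis was highest on the arrays numbered 1 of each group and Dpp4 on those numbered 2. The part of enterocyte content in the spread of Krt20 was not tested. In bulk organoids fewer cells of a type and less RNA per cell cannot be told apart.

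**Figure D3:**
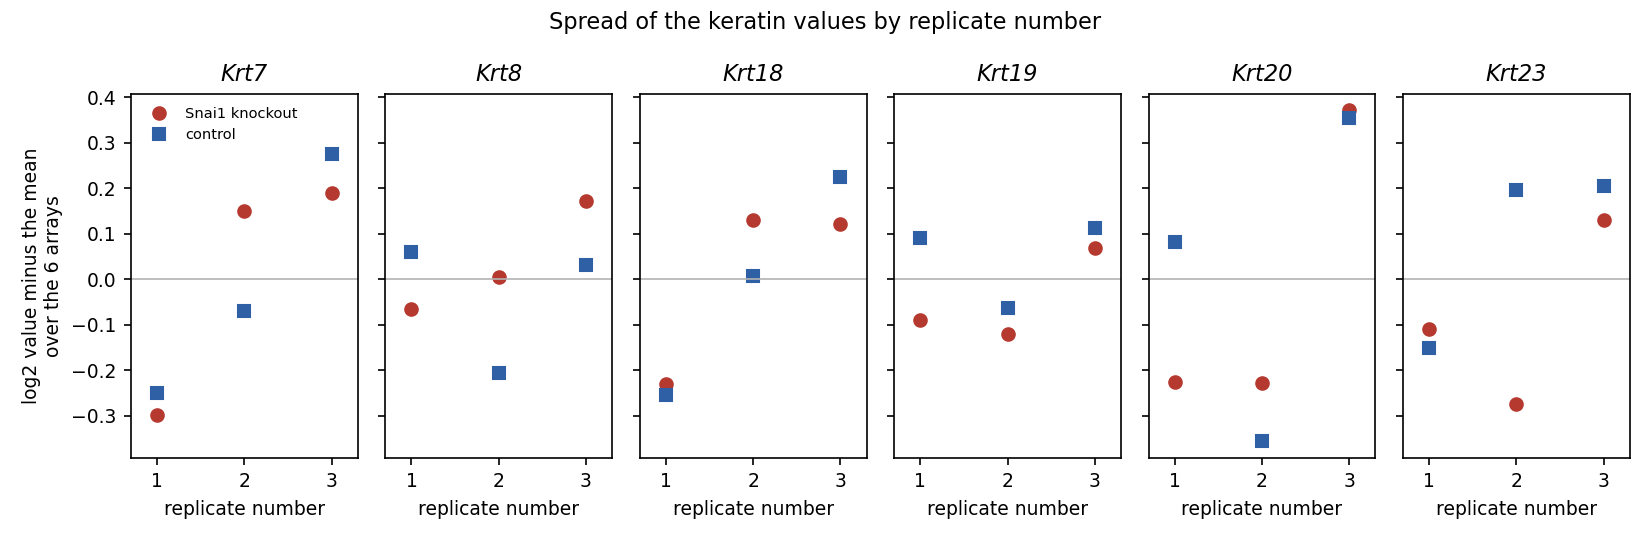
Log2 value minus the gene's mean over the 6 arrays for the 6 keratins, by replicate number, with Snai1 knockout arrays as red circles and control arrays as blue squares. Knockout minus control within numbers 1 to 3 is 0.02, 0.12 and -0.10 in Krt18, -0.31, 0.13 and 0.02 in Krt20, and 0.04, -0.47 and -0.07 in Krt23.

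Filament partners, and the type I keratins Krt19 and Krt20, were compared by the difference of their log2 values on the same array. Krt8 minus Krt18 was 2.96, 2.66 and 2.84 on knockout arrays, against 3.10, 2.58 and 2.60 on control arrays, and the groups overlapped. Krt8 minus Krt19 was 1.40, 1.50 and 1.48 on knockout arrays, against 1.34, 1.23 and 1.30 on control arrays. Here every knockout value lay above every control value, by 0.17 in the mean. Of all single genes 12.0% had groups that did not overlap, and the share among differences between genes was not computed. The separation is a description of 1 of 5 differences computed, with no test. Krt8 minus Krt20 was 2.50, 2.57 and 2.14 on knockout arrays, against 2.31, 2.49 and 2.01 on control arrays, and both groups had their lowest value on the array numbered 3. Krt19 minus Krt20 was 1.10, 1.07 and 0.66 on knockout arrays, against 0.97, 1.25 and 0.72 on control arrays, and the groups overlapped. Krt7 minus Krt18 lay between -1.11 and -0.97 on all 6 arrays, although Krt7 itself ranged over 0.57 and Krt18 over 0.48.

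Genes whose values followed a keratin most closely over the 6 arrays were looked for among the 6969 genes above the upper quartile. They are given as a description, since with so few arrays between 21 and 104 genes reached a Pearson r above 0.9 with a given keratin. Krt20 was followed most closely by Clca1, a secreted Clca family gene of goblet cells, at r = 0.997, then by the metalloprotease gene Adam9 at 0.987 and the ephrin gene Efnb2 at 0.978. Krt7 was followed by Rnasek (0.993), Ly6e (0.987) and Ciz1 (0.986). Krt18 was followed by Ly6e (0.987), Rnasek (0.986) and Ctcf (0.980), so these keratins shared 2 of their 3 nearest genes. The nearest of Krt8 were Pdhb, a pyruvate dehydrogenase subunit gene (0.992), Pawr (0.992) and B4galt7 (0.984). Those of Krt19 were Arfgap1 (0.978), Aadac (0.977) and the brush border cadherin gene Cdhr2 (0.977). Krt23 had the loosest neighbours, Rps9 (0.963), Otud6b (0.955) and Rasef (0.946).

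Of 43 other keratin genes measured, most of them keratins of skin, hair and stratified mucosa, none was called (18 had a higher mean in the knockout and 25 a lower one, with a median difference of -0.008). Krt10, a type I keratin of suprabasal epidermis, was the single one above the upper quartile. It had values of 9.43, 9.22 and 9.07 on knockout arrays, against 9.46, 9.68 and 9.40 on control arrays, with 1 knockout array inside the control range. Its difference of -0.27 ± 0.11 (SE, log2; limma adjusted p = 0.694) was larger in size than that of any of the 7 genes. Krt12, a corneal keratin, and the hair keratin Krt82 differed by -0.05 and -0.04 near the bottom of the scale (adjusted p = 0.753 and 0.804). Of 10 stratified epithelium markers none was above the upper quartile and none was called. Sprr1a, a cornified envelope gene, differed by -0.15 (adjusted p = 0.566), Krt14, a basal cell keratin, by -0.04 and Ivl, which encodes involucrin, by -0.03.

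**Figure D4:**
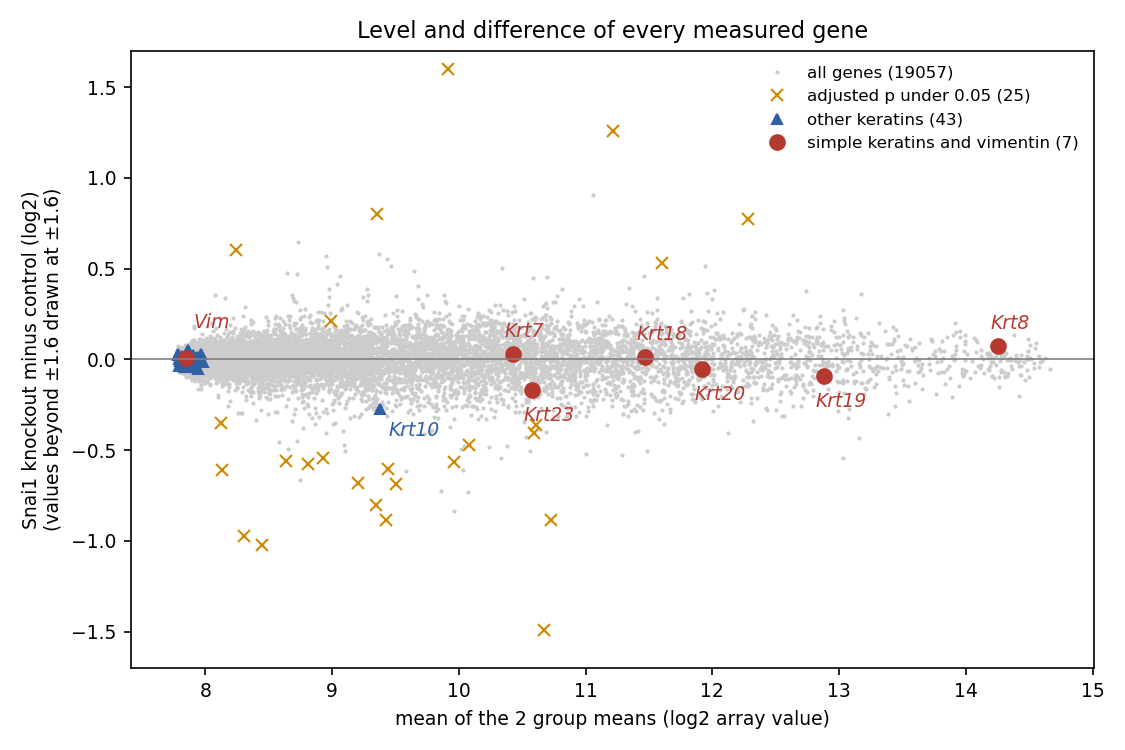
Mean of the group means (log2 array value, horizontal) against Snai1 knockout minus control (log2, vertical) for all 19057 genes in grey, with the 25 called genes as orange crosses, the 7 keratin and vimentin genes as red circles and the 43 other keratins as blue triangles. The 6 simple keratins spread from 10.4 to 14.3 in level and stay within 0.17 of 0 in difference, while all other keratins except Krt10 crowd near the bottom of the scale with Vim.

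Of 13 other intermediate filament genes measured, 3 lay above the upper quartile, and these were the nuclear lamins. Lmnb1 averaged 12.00 ± 0.03 on knockout arrays and 12.03 ± 0.03 on control arrays (SD, n = 3 each; limma adjusted p = 0.947), a far smaller spread than that of Krt7, Krt18 or Krt20. The other lamins varied more. Lmnb2 averaged 10.14 ± 0.11 on knockout and 10.13 ± 0.15 on control arrays, a spread like that of Krt8. Lmna averaged 10.62 ± 0.04 on knockout and 10.63 ± 0.11 on control arrays (SD, n = 3 each). The other cytoplasmic filament genes stood at the bottom of the scale with Vim, among them Sync, which encodes syncoilin (a difference of 0.05), and the neurofilament gene Nefm (0.04). None of the 13 was called.

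Genes that tie keratin filaments to junctions, integrins and each other, or carry keratin in their names, were measured for 16 of 18 listed members, and none was called. Of these 8 had the higher and 8 the lower mean in the knockout, with a median difference of -0.003. Itga6, the integrin subunit of hemidesmosomes, had values of 9.16, 9.17 and 9.23 on knockout arrays, against 9.01, 9.06 and 9.10 on control arrays. Its groups did not overlap, as in 12.0% of all genes, and its difference of 0.13 ± 0.04 (SE, log2) had an adjusted p of 0.435 in limma. Krtcap3 and Krtcap2, named as keratinocyte-associated proteins, differed by -0.16 and -0.11 (adjusted p = 0.834 and 0.877).

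Among the markers of cells that are not epithelial, no list had a called member. The lowest adjusted p in these lists was 0.772 (limma), for the glial gene S100b at a difference of 0.04. The other lowest p-values of the neuron and glia list belonged to Uchl1 (-0.02) and Elavl4 (0.02). In the endothelial list they belonged to Esam (-0.05), Cdh5 (-0.03) and Cldn5 (0.02), and in the leukocyte list to Cd3g (0.03), Lyz2 (-0.03) and Itgam (0.02). In the fibroblast and smooth muscle list, cells that make vimentin, Pdgfrb differed by 0.04, Pdgfra by 0.03 and Col1a1 by -0.02. The mean level of these 15 genes ran from 7.84 to 7.85 on knockout arrays and from 7.84 to 7.85 on control arrays. Of the intestinal epithelium markers none was called. Cdx2, the intestinal homeobox gene, differed by 0.10 (adjusted p = 0.602), the surface antigen gene Gpa33 by -0.09 (0.664) and Epcam, the epithelial adhesion molecule, by -0.04 (0.902). Gpa33 (8.12 in the knockout, 8.22 in control) and Epcam (8.10 and 8.13) lay below the upper quartile, where changes are compressed. Of the 20 villus enterocyte markers 6 had the higher and 14 the lower mean in the knockout, and none was called. The apolipoprotein gene Apoa1 differed by -0.28 (adjusted p = 0.678), the trehalase gene Treh by -0.26 (0.748) and the adenosine deaminase gene Ada by -0.22 (0.762). In the other direction, Lct differed by 0.22 (0.948) and Slc5a1 by 0.19 (0.950). Fabp1, Fabp2 and Slc2a5, which count among the lower ones, lay near the bottom of the scale with differences near 0.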

How the data were processed

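The authors deposited 1 table of log-scale values, taken here as log2, for 45281 probes on 6 Illumina arrays. Once sorted, the 6 columns matched to within 0.00187, which means that distributions were made equal before deposit. The software, background correction and log base were not given in the sources used here. No further normalization was applied. The platform annotation gave 34885 probes 1 gene, 18 several and 10378 none. Each of 19057 genes took its brightest probe, with no filter on dim genes. Snai1 knockout and control were compared with limma 3.58.1 (R 4.3.3; lmFit, eBayes, Benjamini-Hochberg over all genes, threshold 0.05), checked on simulated data, and with exact two-sided permutation tests over samples. The genes, the 10 lists and the tests were chosen with earlier results of these data known. The genes named are the 7, the 3 of lowest p in each list and the 3 most similar to each keratin; others were named after their values were seen. Deviations from group means correlated between arrays of the same number (r = 0.349, 0.327 and 0.456 over all genes). The main fit took no account of the number, so its standard errors and intervals are unpaired. The number served as a block in an alternative fit, and to describe pairs of arrays. The labels do not say what a number shares. Alternatives covered the block, normalization, offset, dim genes, several probes, variance model, array weights and each array left out.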

Additional observations from a re-analysis of the deposited data

How the results depend on the processing

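None of the 7 genes was called under any of the 14 alternatives run (Vim under 13, since the filter on dim genes removed it). Their adjusted p under these ran from 0.485 (Krt19 with the replicate block) to 0.999. The count of genes called over all genes was 9 with the replicate block, 42 with a lower offset, 41 with the filter on dim genes, 40 over all probes and 60 with an intensity trend, against 25. It was 23 without knockout replicate 1, 13 without knockout replicate 2, 4 without knockout replicate 3, 6 without control replicate 1, 15 without control replicate 2 and 9 without control replicate 3. The cause was not tested. Leaving out 1 array gave differences of -0.089 to 0.19 for Krt7, -0.0086 to 0.13 for Krt8, -0.11 to 0.13 for Krt18, -0.25 to 0.11 for Krt20 and -0.019 to 0.040 for Vim, so the sign of these 5 rested on single arrays. Krt19 (-0.15 to -0.057) and Krt23 (-0.29 to -0.073) kept their sign, and Krt23 moved to -0.07 without knockout replicate 2 (and to -0.29 without control replicate 1). With the lower offset, which expands dim values, Vim differed by 0.08. The replicate block changed no call among the 7 genes.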
